A study of Mus musculus with 6 samples.

Results

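The genes described here encode the subunits of the proteasome and the chaperones that assemble it, measured in heart ventricles of dystrophic mice. They were chosen by symbol: a gene is a member if its array feature carries exactly 1 gene symbol, and if that symbol is Psma, Psmb, Psmc, Psmd, Psme, Psmf or Psmg followed by a number. This gave 46 members of 30142 measured genes, each with a single feature on the array. Psmb5, a catalytic subunit, and Psme2, an activator subunit, belong to the complex but were left out, because their features also carry the symbols Mir686 (Psmb5) or Psme2b and Psme2b-ps (Psme2). Expression was measured in 3 male mice that ate chow with 100 ppm finerenone, a non-steroidal blocker of the mineralocorticoid receptor, from 4 weeks of age, and in 3 untreated male mice that ate the chow without it. All 6 mice were dystrophin-deficient and utrophin haplo-insufficient (utrn+/-; mdx, called Het) on a C57BL/10 background and 20 weeks old at collection. Both gene defects were present in every cell, and no hearts without them were analysed here. Each array holds RNA of 1 mouse, and the labels call the mice biological replicates.

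The proteasome is the protease that removes ubiquitin-tagged proteins from the cytosol and nucleus. Its barrel-shaped core particle has outer rings of alpha subunits, which gate the entrance, and inner rings of beta subunits, some of which cut. A regulatory cap binds ubiquitin chains and unfolds the substrate with a ring of ATPases, and dedicated chaperones (Psmg1 to Psmg4) build the alpha ring before the beta subunits join. Interferon induces a variant, the immunoproteasome, in which Psmb8, Psmb9 and Psmb10 replace the constitutive cutting subunits. In heart muscle the proteasome takes part in the turnover of sarcomere proteins and in clearing damaged proteins.

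Promoters are shown for 3 members that the results below turn on: Psmg4, with the widest difference, Psma3, with the smallest p, and Psmc6, the only one of the 10 members at an unadjusted p below 0.05 with a motif match in a listed window. Each is the 250 bases before the RefSeq transcript start on mouse build GRCm38.p6, written on the strand of the gene, here the plus strand for all of them. The windows are chr13:34162714-34162963 for Psmg4, chr12:70974373-70974622 for Psma3 and chr14:45329574-45329823 for Psmc6. The window of Psma3 lies inside the annotated span of that gene, whose earliest start is further upstream. Capitals mark a match to the core of the antioxidant response element, TGACNNNGC on either strand, to which the factors encoded by Nfe2l1 and Nfe2l2 bind.
Psmg4: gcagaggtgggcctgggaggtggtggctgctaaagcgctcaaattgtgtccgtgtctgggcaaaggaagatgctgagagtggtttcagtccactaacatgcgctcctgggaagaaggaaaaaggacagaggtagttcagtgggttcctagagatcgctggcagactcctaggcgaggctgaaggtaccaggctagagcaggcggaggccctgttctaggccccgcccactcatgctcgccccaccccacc
Psma3: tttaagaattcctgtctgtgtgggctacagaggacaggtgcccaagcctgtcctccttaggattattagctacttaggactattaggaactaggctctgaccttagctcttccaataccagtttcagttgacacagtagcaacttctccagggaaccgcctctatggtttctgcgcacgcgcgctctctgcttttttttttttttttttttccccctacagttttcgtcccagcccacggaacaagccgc
Psmc6: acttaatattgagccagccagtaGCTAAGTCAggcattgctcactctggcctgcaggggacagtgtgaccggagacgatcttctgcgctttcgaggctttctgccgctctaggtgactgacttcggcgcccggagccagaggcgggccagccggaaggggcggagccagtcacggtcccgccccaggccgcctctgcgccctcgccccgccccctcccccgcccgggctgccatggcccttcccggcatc

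RefSeq promoters were listed for 38 of the 46 members, in 40 windows. The core of the antioxidant response element was present in 4 of these 40 windows (10.0%), those of Psmc6, Psmb6, Psmd9 and Psmd12, and in 10.2% of all 32851 promoter windows of the same length. The core of the interferon-stimulated response element, GAAA followed by any 2 bases and GAAA again on either strand, was present in 3 of the 40 (7.5%), those of Psmb3, Psmd4 and Psmd9, and in 2.98% of all windows. The matches of the 2 motifs in Psmd9 do not overlap. A match is a description of the letters in the window.

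The arrays correlated between 0.989 and 0.994 over all transcript clusters, and the deposited log2 signals had medians between 4.43 and 4.48. Untreated replicate 1 stood apart. It correlated least with the others and carried liver transcripts: Alb (albumin) measured 16.69 there, against 4.24 and 4.14 in the other untreated hearts and 4.10 to 4.38 in the finerenone hearts. All 7 measured endothelial markers were lower in the finerenone group, with list means of 11.85 to 12.07 in finerenone hearts against 12.08 to 12.87 in untreated hearts, the highest in untreated replicate 1. Their median difference was -0.43 on the log2 scale. Without untreated replicate 1 it was -0.21, with 5 markers lower and 2 higher. The 7 measured ventricular cardiomyocyte markers had list means of 17.11 to 17.22 in finerenone hearts and 17.07 to 17.27 in untreated hearts. Some of them lay close to the highest value of the table, 19.93 (Tnnt2 at 19.92 to 19.93 in all arrays), so no direction is read from them. Of the 4 atrial markers Myl7, Myl4 and Sln lay near the negative controls, while Nppa, which diseased ventricles also express, measured 18.70 to 19.59 in finerenone hearts and 17.85 to 19.22 in untreated hearts, lowest in untreated replicate 1. Because of that array, the differences of the members are also given without it, in the text or in the plot of differences by gene. In such bulk tissue, fewer cells of a type and less RNA per cell cannot be told apart.

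Across the complex, most members had a higher signal in finerenone hearts by small amounts, and none passed the test after adjustment. Among the 46 members there were 35 higher and 11 lower ones, and the median log2 difference (finerenone minus untreated) was 0.14, against 0.03 over all genes, of which 58.2% were higher. Among genes with a mean log2 signal of at least 6 the 41 members had a median of 0.17 with 33 higher, against 0.05 and 60.8% higher over all 11356 such genes. Limma with Benjamini-Hochberg adjustment over all genes called 0 members at an adjusted p below 0.05, as it called 0 of all genes (0%), and the smallest adjusted p of a member was 0.597. At an unadjusted p below 0.05 there were 10 members, all higher, against 5.69% of all genes that were higher at that threshold and 2.12% that were lower. In 7 members the finerenone arrays all lay above the untreated arrays, and in 0 all below, against 8.17% and 4.18% of all genes.

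The size of this shift depended on single mice. With untreated replicate 1 left out the median over members was 0.07, with 29 higher and 17 lower, against 0.03 over all genes. At an unadjusted p below 0.05 there were then 3 members (Psma3, Psma4 and Psmg4), all higher, against 4.5% of all genes. Leaving out untreated replicate 2 gave a median of 0.24 with 17 members higher and 1 lower (Psme4) at that threshold, against 6.7% and 2.55% of all genes. Leaving out finerenone replicate 3 gave a median of 0.23 with 9 members, against 7.2%. The count was 3 when finerenone replicate 1 was left out (4.15% of all genes), 2 for finerenone replicate 2 (3.94%) and 3 for untreated replicate 3 (4.43%). Quantile normalization gave 5 members, all higher, where 4.19% of all genes were higher and 2.89% lower. Other settings gave 7 to 10 members, all higher, against 4.97% of all genes after median centring, 4.91% after cyclic loess, 5.67% for cluster means, 5.41% with a trended prior, 6.09% with array weights, 5.69% with a replicate block, 4% over all clusters, 7.76% of genes at or above the median signal and 8.76% of genes with a mean of at least 6. Of the 46 members 31 (67.4%) had their lowest signal of the 6 arrays in untreated replicate 1, and so did 23.5% of all genes and 35.1% of genes with a mean of at least 6. The highest signal lay in finerenone replicate 1 for 20 members, in finerenone replicate 2 for 13 and in finerenone replicate 3 for 1. Over all 30142 genes these counts were 5991, 6824 and 4069. Among the 11356 genes with a mean of at least 6 they were 2776, 2478 and 1293. Finerenone replicate 3 thus had the smallest count of the finerenone arrays in all genes too.

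**Figure D1:**
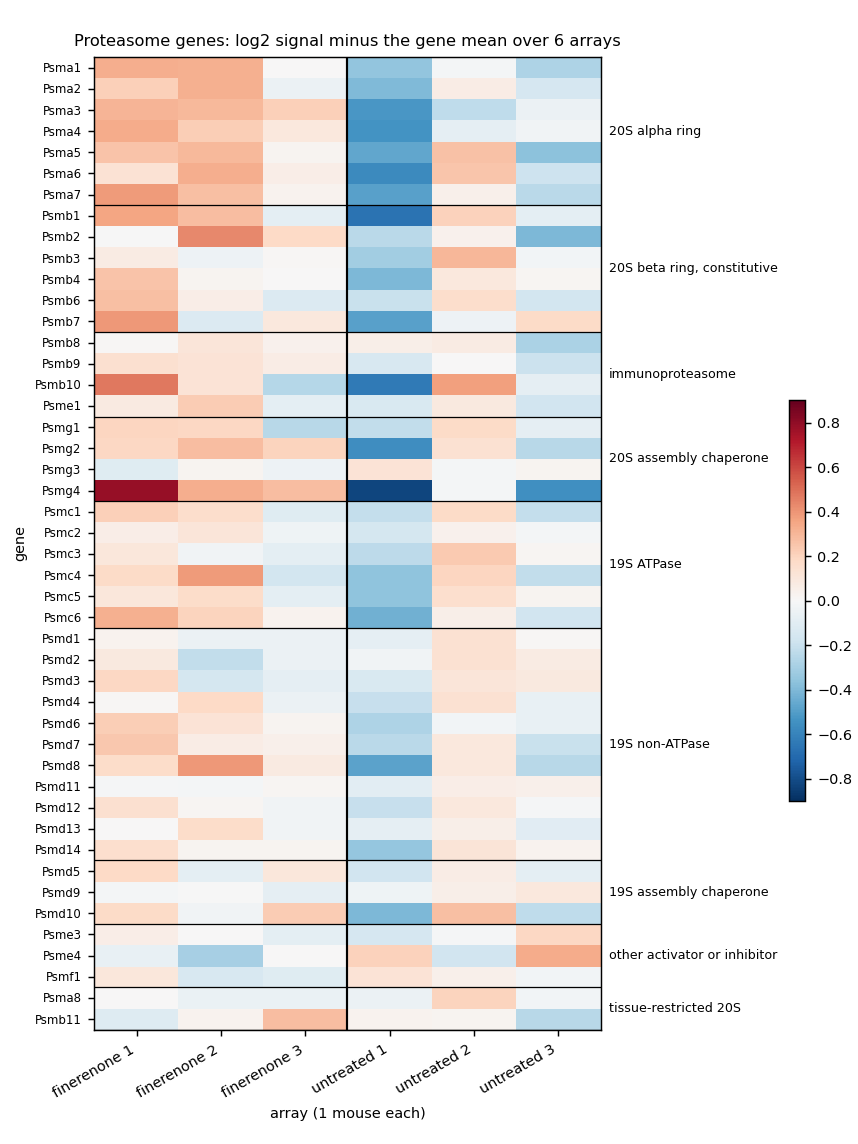
Log2 signal of the 46 proteasome genes (rows, grouped by role) in each of the 6 arrays (columns, finerenone left of the black line and untreated right of it), minus the mean of the gene over the 6 arrays. Red is above that mean and blue below it; 31 genes have their lowest value in untreated replicate 1, among them all 7 of the alpha ring.

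The alpha ring, which forms the gate of the core particle, was higher throughout. All 7 alpha subunits were higher in finerenone hearts, by 0.32 to 0.54 with a median of 0.43, and all 7 stayed higher without untreated replicate 1, by 0.14 to 0.41 with a median of 0.28. The median was 0.55 without untreated replicate 2. Each of the 7 had its lowest signal in untreated replicate 1.

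Psma3, subunit alpha7, measured 13.30, 13.28 and 13.20 in finerenone hearts, against 12.47, 12.76 and 12.94 in untreated hearts. The groups did not overlap, and the finerenone mice lay close together. Finerenone hearts averaged 13.26 ± 0.05 and untreated hearts 12.72 ± 0.24 (SD, n = 3 each), which is 0.54 ± 0.13 (SE) higher on the log2 scale, or 1.45-fold. The limma adjusted p was 0.597. Without untreated replicate 1 the difference was 0.41, and the unadjusted p was below 0.05 in all 6 fits that left out a single array.

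Psma4, subunit alpha3, whose tail closes the gate in yeast, measured 12.07, 11.95 and 11.83 in finerenone hearts, against 11.19, 11.65 and 11.70 in untreated hearts. All finerenone values lay above all untreated ones, by little for the nearest pair. The difference was 0.44 ± 0.15 (SE; limma adjusted p = 0.607), and 0.28 without untreated replicate 1.

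Psma1, subunit alpha6, measured 11.34, 11.34 and 11.02 in finerenone hearts, against 10.66, 10.995 and 10.74 in untreated hearts. The groups were separate, with finerenone replicate 3 just above untreated replicate 2. The difference was 0.43 ± 0.14 (SE; limma adjusted p = 0.597) and 0.37 without untreated replicate 1.

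Psma7, subunit alpha4, measured 8.99, 8.88 and 8.64 in finerenone hearts, against 8.12, 8.65 and 8.36 in untreated hearts. Here finerenone replicate 3 and untreated replicate 2 overlapped. The difference was 0.46 ± 0.16 (SE; limma adjusted p = 0.607) and 0.33 without untreated replicate 1. Psma2, Psma5 and Psma6, the remaining alpha subunits, differed by 0.32, 0.38 and 0.34 with limma adjusted p from 0.668 to 0.745. In each of these 3 the groups overlapped, and without untreated replicate 1 the differences were 0.20, 0.24 and 0.14.

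**Figure D2:**
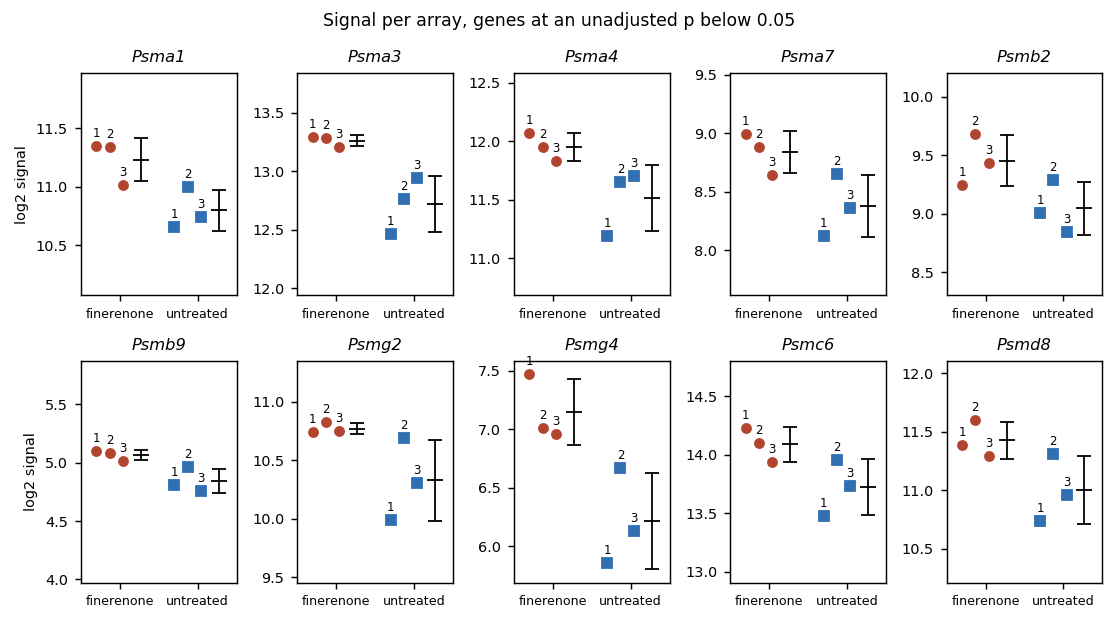
Log2 signal per array of the 10 proteasome genes at an unadjusted p below 0.05, with finerenone (red circles) left of untreated (blue squares) and the replicate number above each point; bars are the mean ± SD of 3 arrays. Every panel spans the same range of log2 units, and in 6 of the 10 panels (Psma1, Psma3, Psma4, Psmb9, Psmg2 and Psmg4) all finerenone points lie above all untreated points. The panels were chosen by p from these same arrays, which favours separate groups, so that count adds no support. Over all genes the share with all finerenone arrays above is 8.17%.

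The 6 measured constitutive beta subunits, of the inner rings that hold the cutting sites, were also all higher, by 0.03 to 0.41 with a median of 0.22. Without untreated replicate 1 their median was 0.07, with Psmb3 at -0.12 and the other 5 higher. Psmb2, a non-catalytic subunit, measured 9.25, 9.68 and 9.43 in finerenone hearts, against 9.004, 9.29 and 8.84 in untreated hearts. Finerenone replicate 1 lay below untreated replicate 2, so the groups overlapped. The difference was 0.41 ± 0.16 (SE; limma adjusted p = 0.619), and it was about as large, 0.39, without untreated replicate 1.

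Of the catalytic subunits, Psmb6 carries the caspase-like site and Psmb7 the trypsin-like site. Psmb6 measured 10.43, 10.22 and 10.04 in finerenone hearts, against 9.96, 10.32 and 9.99 in untreated hearts, a difference of 0.14 ± 0.14 (SE; limma adjusted p = 0.859). Psmb7 measured 14.44, 13.92 and 14.14 in finerenone hearts, against 13.56, 14.00 and 14.22 in untreated hearts, a difference of 0.24 ± 0.21 (SE; limma adjusted p = 0.822). Both overlapped between the groups, and without untreated replicate 1 the differences were 0.07 and 0.06. Psmb1, Psmb3 and Psmb4, which do not cut, differed by 0.36, 0.03 and 0.19, with limma adjusted p of at least 0.760. Without untreated replicate 1 these differences were 0.12, -0.12 and 0.04.

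The 4 measured immunoproteasome genes were higher by 0.11 to 0.23, with a median of 0.19 and, without untreated replicate 1, of 0.14 with 3 higher. Psmb9, the interferon-induced counterpart of Psmb6, measured 5.10, 5.08 and 5.02 in finerenone hearts, against 4.81, 4.96 and 4.76 in untreated hearts. The groups did not overlap, with a difference of 0.22 ± 0.08 (SE; limma adjusted p = 0.618), and 0.20 without untreated replicate 1. In 5 of the 6 arrays this signal lay below the level of the middle negative control, 5.04 to 5.33 across arrays, so it is close to background.

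Psmb8, the counterpart of Psmb5, measured 6.05, 6.15 and 6.07 in finerenone hearts, against 6.09, 6.11 and 5.75 in untreated hearts. The groups overlapped, and the difference of 0.11 ± 0.12 (SE; limma adjusted p = 0.867) rested on untreated replicate 3, without which it was -0.0090 (0.16 without untreated replicate 1). Psmb10, the counterpart of Psmb7, measured 8.77, 8.42 and 8.05 in finerenone hearts, against 7.67, 8.67 and 8.22 in untreated hearts. It varied widely within both groups, with a difference of 0.23 ± 0.29 (SE; limma adjusted p = 0.890), and of -0.03 without untreated replicate 1. Psme1, a subunit of the interferon-induced activator PA28, measured 10.98, 11.12 and 10.81 in finerenone hearts, against 10.75, 10.98 and 10.72 in untreated hearts, a difference of 0.15 ± 0.12 (SE; limma adjusted p = 0.804) with overlapping groups, and of 0.12 without untreated replicate 1.

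The balance between immune and constitutive subunits was read as the log2 signal of the one minus that of the other within each array. For Psmb9 over Psmb6 it was 0.08 higher in finerenone hearts, 0.13 without untreated replicate 1, and between 0.01 and 0.17 with single arrays left out. For Psmb10 over Psmb7 it was -0.02, -0.09 without untreated replicate 1, and between -0.14 and 0.19 with single arrays left out, so its direction depended on the array left out. The groups overlapped in both. Psmb9 lay close to background, below the middle negative control in most arrays. The value for Psmb9 over Psmb6 therefore says little about the balance of the transcripts, and its steady sign is not read as a shift.

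The immunoproteasome is abundant in white blood cells, so markers of those cells are given beside it. Of 12 macrophage and monocyte markers 11 were higher in finerenone hearts, with list means of 8.40 to 8.78 in finerenone hearts and 8.13 to 8.53 in untreated hearts. The count was again 11 of 12 without untreated replicate 1. Ptprc, which marks white blood cells in general, measured 6.73 to 7.29 in finerenone hearts and 6.72 to 6.84 in untreated hearts. All 10 measured T, NK and B lymphocyte markers lay below the median of the negative controls in every array. The part of macrophage RNA in the immunoproteasome values was not tested.

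The genes that present the peptides cut by the proteasome, and the regulators that share its interferon induction, had no common direction. Of the list of 10 genes 8 were measured, 4 higher and 4 lower with a median of -0.04 (-0.04 without untreated replicate 1), and 0 were at an unadjusted p below 0.05. Erap1, which trims peptides in the endoplasmic reticulum, measured 9.35, 9.36 and 9.30 in finerenone hearts, against 9.60, 9.39 and 9.49 in untreated hearts. All finerenone values were lower, with a difference of -0.15 ± 0.08 (SE; limma adjusted p = 0.713), and of -0.10 without untreated replicate 1. Tapbp (tapasin), which loads peptides onto MHC class I, measured 9.45, 9.46 and 9.39 in finerenone hearts, against 9.50, 9.60 and 9.50 in untreated hearts. It too was lower in all finerenone hearts, with a difference of -0.10 ± 0.07 (SE; limma adjusted p = 0.794), and of -0.12 without untreated replicate 1.

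Among the chaperones of core assembly, Psmg4 had the widest difference of all 46 members. Psmg4, which pairs with Psmg3, measured 7.47, 7.01 and 6.96 in finerenone hearts, against 5.86, 6.66 and 6.13 in untreated hearts. The groups did not overlap, with untreated replicate 2 nearest to the finerenone mice. Finerenone hearts averaged 7.14 ± 0.28 and untreated hearts 6.22 ± 0.41 (SD, n = 3 each), which is 0.93 ± 0.24 (SE) higher on the log2 scale, or 1.903-fold. The limma adjusted p was 0.597. In all 6 arrays this signal lay below the 95th percentile of the negative controls, 8.35 to 8.73, as did those of 12 members in all, so the size of the fold is uncertain. Without untreated replicate 1 the difference was 0.75, and in the 6 fits that left out a single array it ran from 0.75 to 1.15 with an unadjusted p below 0.05 in each.

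Psmg3, its partner, measured 3.90, 4.04 and 3.97 in finerenone hearts, against 4.13, 3.99 and 4.04 in untreated hearts. These signals lay below the median of the negative controls in all 6 arrays, so the difference of -0.09 ± 0.08 (SE; limma adjusted p = 0.843) says little about the transcript. The other chaperone pair is Psmg1 and Psmg2. Psmg2 measured 10.74, 10.83 and 10.75 in finerenone hearts, against 9.99, 10.69 and 10.30 in untreated hearts. The groups were separate, with untreated replicate 2 just below the finerenone mice, and the difference was 0.44 ± 0.17 (SE; limma adjusted p = 0.622), or 0.28 without untreated replicate 1. Psmg1 measured 8.33, 8.32 and 7.89 in finerenone hearts, against 7.91, 8.31 and 8.05 in untreated hearts. It overlapped between the groups with a difference of 0.09 ± 0.16 (SE; limma adjusted p = 0.928), and of -0.0013 without untreated replicate 1.

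In the regulatory cap the differences were smaller and ran both ways. Of the 6 ATPases 5 were higher and the other was lower. Their median was 0.15, and 0.07 without untreated replicate 1. Psmc6, the ATPase Rpt4, measured 14.23, 14.10 and 13.93 in finerenone hearts, against 13.47, 13.96 and 13.73 in untreated hearts. Finerenone replicate 3 lay just below untreated replicate 2, and the difference was 0.37 ± 0.15 (SE; limma adjusted p = 0.625), or 0.24 without untreated replicate 1. Psmc1, Psmc2, Psmc3, Psmc4 and Psmc5 differed by -0.02 to 0.26, with limma adjusted p of at least 0.795, and by -0.14 to 0.14 without untreated replicate 1.

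The 11 non-ATPase subunits of the cap had a median of 0.09 (7 higher, 4 lower), and a median of -0.0011 without untreated replicate 1, with 5 higher and 6 lower. Psmd8, the subunit Rpn12 of the lid, measured 11.38, 11.61 and 11.30 in finerenone hearts, against 10.74, 11.31 and 10.96 in untreated hearts. The overlap was slight, between finerenone replicate 3 and untreated replicate 2, and the difference was 0.43 ± 0.16 (SE; limma adjusted p = 0.619), or 0.29 without untreated replicate 1. Psmd6, the lid subunit Rpn7, differed by 0.24 ± 0.10 (SE; limma adjusted p = 0.641), with all finerenone arrays above all untreated ones. Psmd7, the partner of the deubiquitinase in the lid, differed by 0.23 (limma adjusted p = 0.692). Both differed by 0.17 without untreated replicate 1.

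The other non-ATPase subunits, some of the base and some of the lid, lay closer to 0. The scaffold subunits Psmd1 and Psmd2 differed by -0.05 and -0.12, and the lid subunits Psmd3, Psmd11 and Psmd12 by -0.03, -0.01 and 0.08. Psmd4, a receptor for ubiquitin chains, differed by 0.09, Psmd13 of the lid by 0.09, and Psmd14, the deubiquitinase, by 0.13. For these 8 the limma adjusted p was at least 0.831, and without untreated replicate 1 the differences lay between -0.17 and 0.07. Psmd10 (gankyrin), a chaperone of base assembly, measured 8.42, 8.21 and 8.48 in finerenone hearts, against 7.84, 8.52 and 8.02 in untreated hearts, with untreated replicate 2 the highest of all. Of the 3 chaperones of base assembly, Psmd5 differed by 0.13 ± 0.11 (SE; limma adjusted p = 0.814) and Psmd10 by 0.25 ± 0.18 (SE; limma adjusted p = 0.793), while Psmd9, at -0.07, lay below the median of the negative controls in all 6 arrays. Without untreated replicate 1 the differences were 0.08 for Psmd5, 0.11 for Psmd10 and -0.11 for Psmd9.

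The other activators and the inhibitor were the role group in which every member was lower. Psme4, the activator PA200, measured 13.33, 13.10 and 13.41 in finerenone hearts, against 13.61, 13.23 and 13.73 in untreated hearts. The groups overlapped, with a difference of -0.24 ± 0.16 (SE; limma adjusted p = 0.756), and of -0.20 without untreated replicate 1 and -0.39 without untreated replicate 2. Psme3, the nuclear activator PA28 gamma, differed by -0.02 ± 0.11 (SE), and Psmf1, an inhibitor known as PI31, by -0.10 ± 0.10 (SE). Their limma adjusted p was 0.989 for Psme3 and 0.847 for Psmf1. Psma8, an alpha subunit of the testis, and Psmb11, a beta subunit of the thymus, lay below the median of the negative controls in all 6 arrays, with differences of -0.08 and 0.13. Psmb11 measured 3.42, 3.57 and 3.82 in finerenone hearts, against 3.57, 3.56 and 3.29 in untreated hearts, and these values overlapped.

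**Figure D3:**
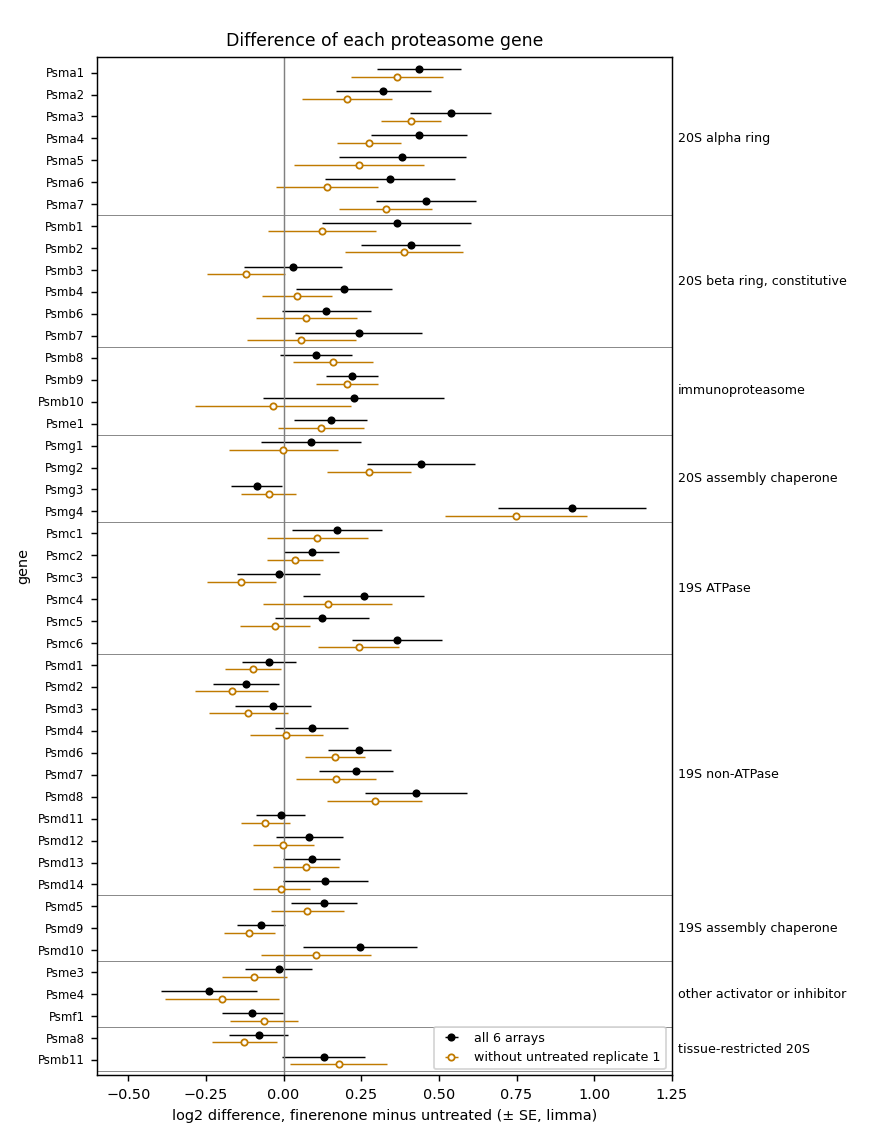
Log2 difference between finerenone and untreated hearts for each of the 46 proteasome genes, with its standard error from limma, grouped by role. Filled black points use all 6 arrays and open orange points leave out untreated replicate 1; the 7 alpha subunits lie right of 0 in both, from 0.32 to 0.54 and from 0.14 to 0.41.

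Taking the rings of the core together, 13 of 13 members were higher with a median of 0.36, and 12 of 13 without untreated replicate 1 with a median of 0.20. In the cap (ATPases and non-ATPases) 12 of 17 were higher with a median of 0.09, and 9 of 17 without untreated replicate 1 with a median of 0.01. The difference between core and cap was not tested. The mean over the 13 core genes was 11.24, 11.19 and 11.02 in finerenone hearts, against 10.55, 11.07 and 10.85 in untreated hearts. For the 17 cap genes it was 10.86, 10.82 and 10.70 in finerenone hearts, against 10.50, 10.84 and 10.67 in untreated hearts. In both, untreated replicate 1 was lowest and untreated replicate 2 lay within the range of the finerenone mice.

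**Figure D4:**
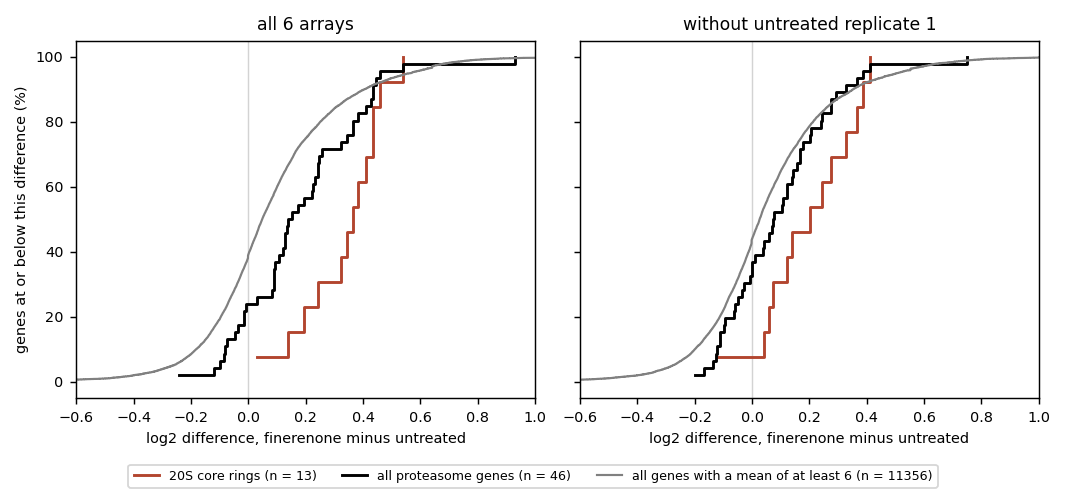
Cumulative share of genes (in %) at or below each log2 difference between finerenone and untreated hearts, for the 13 genes of the core rings (red), all 46 proteasome genes (black) and all 11356 genes with a mean log2 signal of at least 6 (grey). With all 6 arrays (left) the medians are 0.36, 0.14 and 0.05, and without untreated replicate 1 (right) they are 0.20, 0.07 and 0.03. The 46 proteasome genes are not filtered by signal. The 41 of them with a mean of at least 6 have medians of 0.17 (all 6 arrays) and 0.08 (without untreated replicate 1).

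Across the arrays, genes with a short genomic span tended to be higher in finerenone hearts, so the members were also read by span. Among all genes with a mean of at least 6, those spanning under 12362.5 bases (the median span of the members) had a median difference of 0.13 with 73.0% higher, and those at or above it a median of 0.01 with 51.4% higher. The 23 members of short span had a median of 0.15 with 82.6% higher, and the 23 of long span a median of 0.13 with 69.6% higher. Unlike the set of all genes, the members were not filtered by signal here, and 41 of the 46 had a mean of at least 6. Within the core rings the medians were 0.31 for the 6 genes of short span and 0.36 for the 7 of long span. These medians use all 6 arrays. The part of span in the differences was not tested.

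Genes that work with the proteasome but lie outside the symbol rule showed no shared shift. Of 31 listed genes for ubiquitin, shuttle factors, deubiquitinases and regulators of proteasome synthesis 22 were measured, 12 higher and 10 lower with a median of 0.03, and -0.04 without untreated replicate 1. Of these 22, 1 was higher and 1 lower at an unadjusted p below 0.05, against 5.69% and 2.12% of all genes. Without untreated replicate 1 there were 0 higher and 2 lower (Nfe2l1 and Ube3c). Of all 30142 genes 1357 were then higher and 580 lower at that threshold. Txnl1, a thioredoxin bound to the cap, measured 12.27, 12.22 and 12.03 in finerenone hearts, against 11.68, 11.97 and 11.84 in untreated hearts. All finerenone values were higher, with a difference of 0.35 ± 0.11 (SE; limma adjusted p = 0.597), and 0.27 without untreated replicate 1.

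Nfe2l1, the transcription factor that raises transcription of proteasome genes when the proteasome is impaired, measured 12.18, 12.12 and 12.05 in finerenone hearts, against 12.36, 12.34 and 12.37 in untreated hearts. All finerenone values were lower and the untreated mice were tightly grouped. The difference was -0.24 ± 0.07 (SE; limma adjusted p = 0.597), and -0.23 without untreated replicate 1. Nfe2l2, Pomp and Sem1, also on that list, were chosen after their values were seen, the first because its product binds the same motif and the others as parts of the assembly line and of the cap. Nfe2l2 measured 9.87, 10.12 and 9.94 in finerenone hearts, against 9.87, 9.72 and 9.79 in untreated hearts. All finerenone values were higher, finerenone replicate 1 by very little over untreated replicate 1. The difference was 0.19 ± 0.10 (SE; limma adjusted p = 0.693), and 0.23 without untreated replicate 1. Pomp, the maturation factor that joins unfinished cores, measured 12.87, 13.09 and 12.35 in finerenone hearts, against 12.31, 12.88 and 12.39 in untreated hearts. Sem1, the smallest subunit of the cap, measured 10.63, 10.49 and 10.01 in finerenone hearts, against 9.89, 10.47 and 10.08 in untreated hearts. Both overlapped between the groups, with differences of 0.24 ± 0.23 (Pomp) and 0.23 ± 0.21 (Sem1; both SE). They were 0.14 (Pomp) and 0.11 (Sem1) without untreated replicate 1.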

How the data were processed

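RNA of heart ventricles from 6 mice was hybridised on Affymetrix arrays, 1 per mouse. The deposited values are log2 signals. The submitters' processing notes name RMA, the Transcriptome Analysis Console and the Affymetrix Expression Console as the authors' tools, without versions. RMA equalises the distribution of probe values across arrays before they are summarised, so differences are relative to the whole array. The summarised values were not fully equal in distribution. Quantile normalization of them moved the median over members from 0.14 to 0.10. Precision is limited by having 3 arrays a group. Of 72688 probe sets 65956 were transcript clusters, and 30604 of these had 1 symbol in the platform annotation (2146 had several, 33206 none). Symbols were updated by Entrez identifier to RefSeq genes of GRCm38.p6, and a gene kept its cluster of highest mean signal, giving 30142 genes with no filter on dim signals. Groups and replicate numbers came from the sample titles.

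Groups were compared with limma 3.58.1 in R 4.3.3 (lmFit, eBayes, two-sided, no covariate), with Benjamini-Hochberg adjustment over all genes at 0.05, and the script was tested on simulated data. Python 3.11.15, pandas 2.3.3 and matplotlib 3.10.9 handled tables and plots. The members, lists and alternatives were chosen with earlier results of these data known. Described in full are the immunoproteasome genes and their constitutive counterparts, the core chaperones, members at an unadjusted p below 0.05 and the member with the smallest p in each role; of other lists, genes at that threshold or else the pair with the smallest p. Lists were described by counts and medians without a test.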

Additional observations from a re-analysis of the deposited data

How the results depend on the processing

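Tried were 3 rescalings (quantile, median centring, cyclic loess), 2 filters on dim genes, cluster means, a trended and robust prior, array weights, a block for replicate number, all clusters, and each array left out in turn. In each of them limma called 0 genes and 0 members at an adjusted p below 0.05. The 10 members at an unadjusted p below 0.05 became 5 after quantile normalization and 2 to 18 with single arrays left out, and were 7 to 10 in the others. The part of the smaller number of arrays in these counts was not tested. The median over members stayed above 0 throughout, between 0.07 and 0.24 with single arrays left out and between 0.10 and 0.17 in the others. Of the 46 members 34 kept their direction in all alternatives. Psmd12 turned to -0.032 after quantile normalization and -0.0033 after cyclic loess. The other turns came with single arrays left out, where Psmb3 ran from -0.12 to 0.19, Psmb8 from -0.0090 to 0.17, Psmb10 from -0.034 to 0.47, Psmc3 from -0.14 to 0.098, Psmc5 from -0.027 to 0.23, Psmd1 from -0.098 to 0.012, Psmd3 from -0.13 to 0.034, Psmd11 from -0.058 to 0.019, Psmd12 from -0.0011 to 0.15, Psmd14 from -0.0071 to 0.22, Psme3 from -0.094 to 0.072 and Psmg1 from -0.0013 to 0.23; the cause was not tested. The labels name no pairs of mice. Same-numbered arrays correlated at -0.154, 0.0588 and 0.0579 in their deviations from the group means. With 3 arrays a group these values cannot decide whether the replicate numbers pair the mice. With the replicate number as a block 7 members were at an unadjusted p below 0.05, and 0 genes passed the adjusted threshold. Psmb5 carried several symbols, so its ratio to Psmb8 was not computed. Signal over background limits the 12 members below the 95th percentile of the negative controls in all 6 arrays: Psma8, Psmb3, Psmb8, Psmb9, Psmb11, Psmd3, Psmd9, Psmd13, Psmf1, Psmg1, Psmg3 and Psmg4. Above that level in all 6 arrays lay 27 members. The rest lay below it in some arrays. These were Psmc4 (1 array), Psmd4 (2), Psma7, Psmb10 and Psmd14 (3 each), and Psmb4 and Psmd10 (4 each).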
